A study of Mus musculus with 4 samples.

Results

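Integrins are the adhesion receptors with which a macrophage holds on to other cells and to matrix, and 9 integrin chain genes together with Icam1, the gene of an integrin ligand, were followed here in alveolar macrophages of mice with and without lung metastases. The 10 genes (Itgax, Itgam, Itgal, Itgb2, Itgb1, Itgb5, Itgb7, Itgav, Itga4 and Icam1) were taken by symbol, not by their values. They hold 58 of the 30627 short sequence tags listed in the count tables, and 10 of the 11827 genes to which those tags were assigned. Of the 58 tags, 46 had a count in at least 1 library. Of the 10 genes, 8 had a count and 7 passed the filter on low counts and entered the test.

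The libraries were made by serial analysis of gene expression (SAGE), which counts a tag cut next to a CATG site of each transcript, by design the site nearest the 3′ end. The Pre AM group has 2 libraries from untreated BALB/c mice. The Day 21 AM group has 2 libraries from BALB/c mice that had received the mouse hepatocellular carcinoma line BNL by vein 21 days before and were labelled as having lung metastasis. All mice were labelled wild type, no sham injection is described for the untreated mice, and injection and metastasis therefore cannot be told apart. Whether the replicates are different animals, pools or repeats of 1 RNA is not stated in the labels, and neither is how the macrophages were purified. The p-values below thus reflect the spread among 4 libraries, part of which may be technical. Total counts ran from 1630776 to 2198563 per library. Ctsd, which encodes the lysosomal protease cathepsin D, took 22.4% to 24.9% of the counts in the Pre AM libraries and 35.5% to 36.4% in the Day 21 AM libraries.

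An integrin is a pair of 1 alpha and 1 beta chain, and the pair decides what is bound. The leukocyte integrins share the beta chain CD18 (Itgb2), which pairs with CD11a (Itgal, giving LFA-1), CD11b (Itgam, giving Mac-1) or CD11c (Itgax). LFA-1 and Mac-1 bind ICAM-1, the product of Icam1. Alveolar macrophages of the mouse are known for high CD11c and low CD11b, and monocytes and macrophages newly derived from them for high CD11b, so the Itgax to Itgam balance is often used to tell the populations apart. Itgb1 and Itgb7 pair with Itga4 in receptors for VCAM-1, fibronectin or MAdCAM-1, and Itgb5 pairs with Itgav in a receptor for vitronectin.

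The tags on which these measurements rest are given below with the CATG site in capitals and the 21 counted bases in lower case, read 5′ to 3′ on the transcript strand. They are shown because each gene's level is the count of a few such tags, and because the site of a tag decides which part of the transcript it reports.
Itgax, last site: CATGttatcctcatttctaataaag
Itgax, most counted: CATGcaaaagagtcccgtgctggac
Itgam, last site: CATGcgacagtgaaaaccaaggcaa
Itgam, site before it: CATGcattgacctccccagcaacaa
Itgb2, most counted: CATGtccggaggaaattggctggcg
Itgb2, 3′ UTR: CATGagttatcataatcaagcagat
Itgb1, most counted: CATGactgattttcagcttcacagg
Itgb5, most counted: CATGaacctctgaaggcctggctgc
Itgb5, exon 4: CATGaaggatgacttggagaacatc
Icam1, most counted: CATGgtcccaggcggctccacctca
Each of these 10 tags matched the transcripts of its own gene alone in GENCODE M21 (GRCm38). The last Itgax site lies in the 3′ UTR at chr7:128150619-128150643 (exon 30 of 30), and the most counted Itgax tag lies in coding sequence across the junction of exons 26 and 27, at chr7:128148292-128148503 with the intron included. Both Itgam sites lie in the 3′ UTR in exon 30 of 30, at chr7:128118085-128118109 and chr7:128117390-128117414. The most counted Itgb2 tag crosses the junction of exons 6 and 7 of 16 in coding sequence (chr10:77548780-77549962, intron included), and the other Itgb2 tag is in the 3′ UTR (chr10:77565243-77565267). The Itgb1 tag (chr8:128732432-128732456, exon 16 of 16), the most counted Itgb5 tag (chr16:33948997-33949021, exon 15 of 15) and the Icam1 tag (chr9:21028663-21028687, exon 7 of 7) are 3′ UTR tags, and the second Itgb5 tag is coding (chr16:33875887-33875911).

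None of the 7 tested genes passed the test between Day 21 AM and Pre AM libraries at an adjusted p under 0.05 (edgeR quasi-likelihood test, Benjamini-Hochberg over 2993 genes). Over all genes tested 0.735% passed (22 genes, with 20 higher and 2 lower on day 21, or 0.668% and 0.0668%). The adjusted p was 0.998 for each of the 7, the lowest unadjusted p was 0.292, and 0 of 7 had an unadjusted p under 0.05 against 5.68% of all genes tested. Over the settings tried, which included DESeq2 and limma-voom, the smallest adjusted p of any of them was 0.236. Of the 7 log2 changes 3 were positive and 4 negative, with a median of -0.15, beside a median of -0.07 over all genes tested. The levels in the Pre AM and Day 21 AM libraries did not overlap for 4 of the 7 (Itgax, Itgal and Itga4 lower and Itgb1 higher on day 21), beside 31.2% of all genes tested (16% lower and 15.2% higher). Of these, Itga4 passed the filter on low counts through the Pre AM libraries alone, so its direction carries little weight. Scaled by total counts alone, Itgb1 was instead lower in both Day 21 AM libraries. Its values per 1000000 counts were then 118.2 and 117.8 in Pre AM and 116.0 and 103.6 on day 21. A difference not passing the test does not show equal levels, and the intervals given with each gene below show how wide the range left by 2 libraries a group was.

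Levels are given as counts in 1000000 counts of a library (CPM) after TMM scaling of library sizes. In order of mean CPM over the 4 libraries the genes were Itgb5 (589 CPM), Itgb2 (227 CPM), Icam1 (145 CPM), Itgb1 (115 CPM), Itgax (56.9 CPM), Itgal (11.8 CPM) and Itga4 (5.06 CPM). The libraries of Itgb5, Itgb2, Icam1 and Itgb1 overlapped in level, so their order is not set apart from their spread. The highest library of Itgax was under the lowest of Itgb1 and Icam1, but above the lowest of Itgb2 and of Itgb5. Further down, the highest library of Itgal was under the lowest of Itgax, and the highest of Itga4 under the lowest of Itgal. A transcript gives by design 1 tag whatever its length, but genes differ in how many of their sites are listed, so the order describes counted tags.

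**Figure D1:**
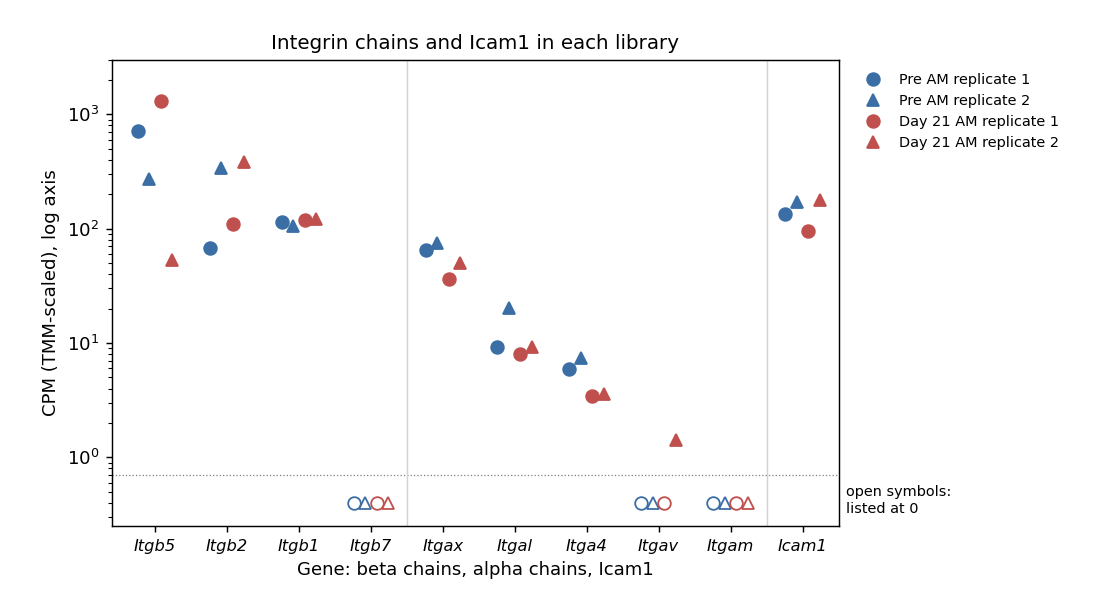
Level of each gene in each library, in TMM-scaled CPM on a log axis, with beta chains on the left, alpha chains in the middle and Icam1 on the right. Each symbol is 1 library, shifted sideways for legibility, and open symbols mark a gene listed at 0. Itgb5 runs from 53.4 to 1312 CPM, Itgb1 only from 106 to 120 CPM, and Itgam and Itgb7 are at 0 in all 4 libraries.

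Itgax, the CD11c chain, was counted 134 and 183 times in Pre AM replicates 1 and 2 and 64 and 71 times in Day 21 AM replicates 1 and 2. As levels these were 65.8 and 74.8 CPM before and 36.5 and 50.6 CPM on day 21, with means of 70.3 ± 6.41 and 43.6 ± 9.95 CPM (SD, n = 2). Both Day 21 AM libraries were below both Pre AM libraries. The fitted log2 change was -0.69 ± 0.64 (SE), 1.61-fold lower on day 21, with a 95% interval of -2.01 to 0.63 (edgeR, adjusted p 0.998). Leaving out 1 library at a time kept it negative, between -0.91 and -0.42.

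Itgam, the CD11b chain, was listed at 0 in all 4 libraries. The tables list 3 of the 20 CATG sites of its transcript, the last, the one before it and the fourth from the 3′ end, and the tag at the fourth also matched the predicted gene Gm49368. Itgax therefore made up 100% of the Itgax and Itgam counts in every library, with exact 95% binomial intervals that reach down to 97.3% and 98.0% in Pre AM and to 94.4% and 94.9% in Day 21 AM. Tags counted once are absent from the tables, so an Itgam total of up to 6.43 counts spread evenly over its 3 tags would still leave all of them at 0 with a probability of 5%. Against that floor Itgax was at least 20.8-fold and 28.5-fold higher than Itgam in Pre AM replicates 1 and 2 and at least 9.95-fold and 11.04-fold higher in Day 21 AM replicates 1 and 2. The bounds are lower on day 21 because the Itgax count is, with no Itgam count in any library, and intervals and floors cover counting error only.

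These bounds hold only if the listed Itgam tags can be counted when the transcript is there. Among 20 listed genes that every cell uses, a list chosen after the data were seen, the transferrin receptor gene Tfrc was at 0 in all 4 libraries with 7 listed tags, and 5 were at 0 in at least 1 library. Fabp4, a lipid carrier gene and a defining alveolar macrophage marker, was at 0 with 1 listed tag, and Marco, a scavenger receptor gene, had 2 counts in 1 library. A change in the Itgax to Itgam balance could therefore not be measured, and no test of the ratio was possible with Itgam at 0 throughout.

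The other markers of the 2 macrophage types moved as follows, and in RNA from a bulk population fewer cells of a type and less RNA per cell cannot be told apart. Of 22 alveolar macrophage markers, 20 were listed, 18 had counts and 16 were tested, Itgax among them. None passed the test with edgeR, DESeq2 or limma-voom. At an unadjusted p under 0.05, edgeR had 3 lower and 1 higher, against 64 lower and 106 higher of all 2993 genes tested. The groups did not overlap for 6 of the 16, all lower on day 21, against 16% of all genes tested. This was not particular to these markers, since 8 of 22 integrin activation genes and 3 of 9 leukocyte adhesion genes (described below) were also lower without overlap. Of the log2 changes of the alveolar macrophage markers 12 were negative and 4 positive, and the median was -0.44, beside -0.07 over all genes tested. Without Pre AM replicate 2, Krt79 passed as lower and Chil3 as higher. Krt79, an epithelial-type keratin gene used as an alveolar macrophage marker, had the most negative change of that list, at 329 and 210 CPM in Pre AM and 90.7 and 20.7 CPM in Day 21 AM (log2 change -2.27 ± 0.70, edgeR adjusted p 0.204). Siglecf, the sialic acid-binding receptor that defines these cells beside CD11c, was at 27.5 and 37.2 CPM and then 21.1 and 19.95 CPM (log2 change -0.65 ± 0.70), a change close to that of Itgax. The most abundant markers, the tetraspanin gene Cd9 and the chitinase-like gene Chil3, had changes of -0.21 ± 0.54 and 1.33 ± 0.63. The summed level of the alveolar macrophage list overlapped between groups, at 3286 and 5983 CPM in Pre AM and 3291 and 6097 CPM in Day 21 AM.

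Of 19 markers of monocyte-derived and interstitial macrophages, Itgam among them, 18 were listed, 14 had counts and 10 were tested. All 10 tested changes were positive and 7 passed the test (Apoe, C1qb, C1qc, Ms4a7, Trem2, Mmp14 and Pf4), against 0.668% of all genes passing in that direction. The list was chosen with earlier results of these data known, so the 7 calls are not independent support for a shift of cell type. DESeq2 also called those 7, limma-voom 3, total-count scaling 5, and 0 passed without Pre AM replicate 1. Of the 7, C1qb, C1qc, Mmp14 and Pf4 had 0 to 4 counts in each Pre AM library. They passed the filter on low counts only through the Day 21 AM libraries, so they could enter the test only as higher. Apoe and Ms4a7 had 17 to 192 counts in each Pre AM library. Trem2 had 10 and 26 there, with Pre AM replicate 1 at the edge of the filter, so it also leaned on the Day 21 AM libraries. So did Ly6c2, tested but not passing, with 4 and 39 counts in Pre AM. The summed level of the list was 64.8 and 137 CPM in Pre AM and 2374 and 3460 CPM in Day 21 AM. Apoe, the apolipoprotein gene, went from 28.5 and 78.5 CPM to 1733 and 2715 CPM, and Ms4a7, a membrane protein gene of monocyte-derived macrophages, from 14.7 and 6.95 CPM to 242 and 244 CPM. C1qb and C1qc, which encode chains of complement C1q, were at 0 in both Pre AM libraries and at least 19.2-fold and 21.1-fold higher on day 21. The list's median log2 change was 4.56, or 4.33 with those genes at their bounds, and describes only the genes that passed the filter. In these same libraries Itgam, Folr2, Lyve1 and Cd163 were listed at 0, and Ccr2, the monocyte chemokine receptor gene, had 2 counts in each Day 21 AM library. The part of these cell markers in the Itgax levels was not tested.

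Itgal, the CD11a chain of LFA-1, had 19 and 50 counts in Pre AM replicates 1 and 2 and 14 and 13 in Day 21 AM replicates 1 and 2. Its levels were 9.32 and 20.4 CPM before and 7.99 and 9.26 CPM on day 21, so that Pre AM replicate 1 and Day 21 AM replicate 2 differed by little. The log2 change of -0.79 ± 0.76 had a 95% interval of -2.36 to 0.78 (edgeR, adjusted p 0.998) and was -0.09 without Pre AM replicate 2. Most counts, 57 over the 4 libraries, came from a tag in exon 12 of 31 (chr7:127310256-127310280), and 24 came from a tag in the 3′ UTR. The 3 sites nearest the 3′ end of Itgal are not among the listed tags.

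Among the alpha chain counts of each library, Itgax took 81.2% and 72.9% in Pre AM and 76.2% and 78.0% in Day 21 AM (of 165, 251, 84 and 91 counts). Its exact 95% interval in Pre AM replicate 1 was 74.4% to 86.9%. The Itgax share thus overlapped between the groups. The number of alpha chain counts was lower in both Day 21 AM libraries, but these are raw counts. Total counts were also lower on day 21, at 1783814 and 1630776 against 1962569 and 2198563 in Pre AM. The difference in alpha chain counts was not tested.

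Itgb2, the CD18 chain with which Itgax, Itgam and Itgal must pair to reach the surface, had 138 and 836 counts in Pre AM and 193 and 543 counts in Day 21 AM. Its levels were 67.7 and 342 CPM in Pre AM and 110 and 387 CPM in Day 21 AM. In both groups the library labelled replicate 2 was the higher by a wide margin, and the groups overlapped (means 205 ± 194 and 249 ± 196 CPM, SD, n = 2). The log2 change was 0.28 ± 0.71, with a 95% interval of -1.18 to 1.74 (edgeR, adjusted p 0.998). It was 1.91 without Pre AM replicate 2 (adjusted p 0.236), -0.46 without Pre AM replicate 1 and -0.86 without Day 21 AM replicate 2, and -0.035 when scaled by total counts alone.

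Some other genes were also higher in the replicate 2 library of each group, and not only neutrophil genes. The summed level of the alveolar macrophage markers was 3286 and 5983 CPM in Pre AM and 3291 and 6097 CPM in Day 21 AM. The genes for TGF-beta and its activation went the other way, summing to 502 and 392 CPM and then 474 and 352 CPM. The share of all genes with this pattern was not counted. The summed level of the neutrophil markers with counts (6 of 13 named) was 10.8 and 159 CPM in Pre AM and 75.9 and 280 CPM in Day 21 AM, the same order of libraries as Itgb2, and most of it was Camp, a granule peptide gene. S100a9, a calcium-binding protein gene of neutrophils and monocytes, had 0 and 30 counts and then 9 and 27. Without Pre AM replicate 2 both passed as higher on day 21. Elane, a neutrophil protease gene, had 0 and 7 counts and then 0 and 6, S100a8 had 0 and 3 and then 0 and 5, and Ltf, the lactoferrin gene, had 0 and 5 and then 3 and 3. Mmp8, the remaining marker with counts, was not higher in replicate 2. It had 3 and 2 counts in Pre AM and 0 in both Day 21 AM libraries. Mpo, Cxcr2 and Mmp9 were listed at 0, and 4 of the 13 markers were not among the listed genes. B2m, a gene of nearly every nucleated cell and named here after its values were seen, had 2 and 136 counts and then 10 and 56. The part of the neutrophil markers in the Itgb2 level was not tested.

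The ratio of Itgax, Itgam and Itgal counts to Itgb2 counts was 1.11 and 0.279 in Pre AM and 0.404 and 0.155 in Day 21 AM. Pre AM replicate 1 was the only library in which the alpha chains outnumbered their beta chain. The groups overlapped, with a mean log2 difference of -1.15 and a two-sided exact permutation p of 0.667, where 2 libraries against 2 cannot give less than 0.33.

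Itgb1, the beta chain of the matrix and VCAM-1 receptors, had the narrowest spread of the tested genes, 1.14-fold between its highest and lowest library. It had 232 and 259 counts in Pre AM and 207 and 169 in Day 21 AM, or 114 and 106 CPM and then 118 and 120 CPM. The Day 21 AM libraries were the higher in CPM, but by less than the uncertainty of the scaling, since the log2 change of 0.12 ± 0.61 became -0.11 with total counts alone. Its 95% interval was -1.14 to 1.37 (edgeR, adjusted p 0.998), and leaving out single libraries moved it only between 0.09 and 0.19.

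Itga4, the alpha chain that joins Itgb1 in VLA-4, was the lowest of the tested genes, at rank 2842 of 2993 by mean CPM. Its counts were 12 and 18 in Pre AM and 6 and 5 in Day 21 AM (5.89 and 7.36 CPM, then 3.42 and 3.56 CPM). Both Day 21 AM libraries were lower, but the gene passed the filter of 10 counts through the Pre AM libraries alone, so its direction carries little weight. The log2 change was -0.91 ± 0.93, with a 95% interval of -2.82 to 0.99 (edgeR, adjusted p 0.998). Most of its counts, 10, 12, 6 and 3, came from the last site, in the 3′ UTR (chr2:79332588-79332612). Itgb7, the other partner of Itga4, was listed at 0 in all 4 libraries at its 2 listed tags, which include its last site, and the floor for those tags was 5.69 counts per library.

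Itgb5, a beta chain that pairs with Itgav, was the most counted of the set and the least steady. It had 1457 and 672 counts in Pre AM and 2299 and 75 in Day 21 AM, or 715 and 275 CPM and then 1312 and 53.4 CPM. The highest and the lowest library were thus both of the Day 21 AM group, 24.6-fold apart. The log2 change of 0.47 ± 0.81 had a 95% interval of -1.20 to 2.13 (edgeR, adjusted p 0.998), and group means were 495 ± 311 and 683 ± 890 CPM (SD, n = 2). Without Day 21 AM replicate 1 the change was -3.15 (adjusted p 0.237), without Day 21 AM replicate 2 it was 1.44, and without Pre AM replicate 2 it was -0.05. It was also negative, at -0.69, with limma-voom. The error of the change depended on the test, at 1.49 with the robust prior of edgeR and 1.75 with DESeq2, both wider than the 0.81 behind the interval above, which does not reach -3.15.

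The spread of Itgb5 was not that of a single tag. The 3′ UTR tag had 1397, 626, 2159 and 75 counts in Pre AM replicates 1 and 2 and Day 21 AM replicates 1 and 2, and the exon 4 tag had 55, 42, 115 and 0. Both tags were highest in Day 21 AM replicate 1 and lowest in Day 21 AM replicate 2. Itgav, the alpha chain that Itgb5 needs, was listed at 0 in 3 libraries and had 2 counts, at a coding site in exon 18 of 30, in Day 21 AM replicate 2, the library with the least Itgb5. Its 5 listed tags include the last 2 sites, and their floor was 7.63 counts per library.

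**Figure D2:**
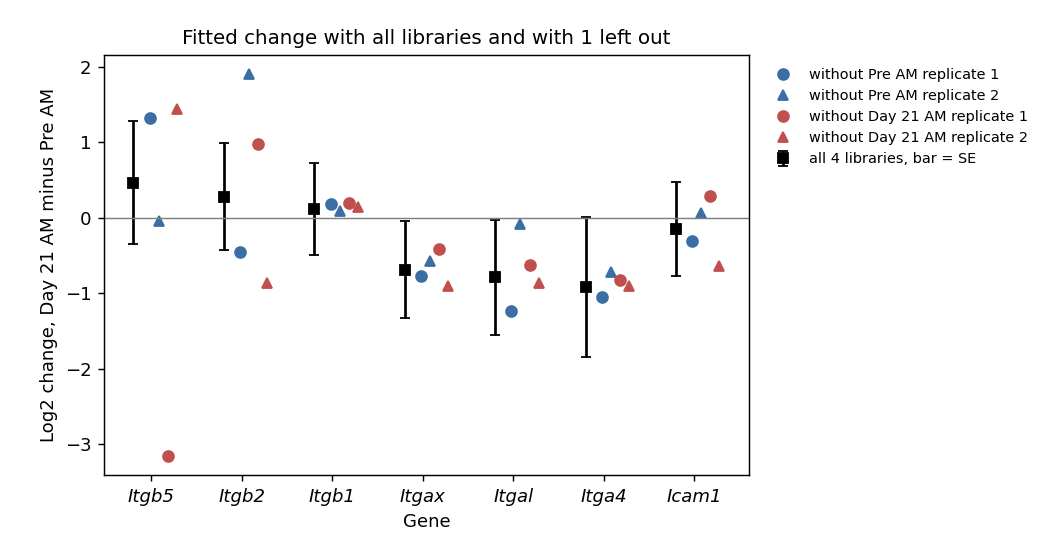
Log2 change of the 7 tested genes, Day 21 AM minus Pre AM, with all 4 libraries (black squares, bars are 1 SE) and with each library left out in turn (coloured symbols). Itgax, Itgal and Itga4 stay below 0 in every case and Itgb1 stays near 0, while Itgb5 moves between -3.15 and 1.44 and Itgb2 between -0.86 and 1.91. Itga4 passed the filter on low counts through the Pre AM libraries alone.

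The beta chain counts of a library were divided very differently. Itgb5 took 79.7% and 38.03% of them in Pre AM and 85.2% and 9.53% in Day 21 AM. Itgb2 took 7.55% and 47.3% in Pre AM and 7.15% and 69.0% in Day 21 AM. Itgb1 took 12.7% and 14.7%, then 7.67% and 21.5%. In both groups Itgb5 prevailed in replicate 1 and Itgb2 in replicate 2, with exact 95% intervals of 77.8% to 81.6% for Itgb5 in Pre AM replicate 1 and 65.6% to 72.2% for Itgb2 in Day 21 AM replicate 2. The Itgb2 count per Itgb5 count was 0.0947 and 1.24 in Pre AM and 0.0840 and 7.24 in Day 21 AM. Between the groups the mean log2 difference was 1.18 with a two-sided exact permutation p of 1, where the smallest possible is 0.33.

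**Figure D3:**
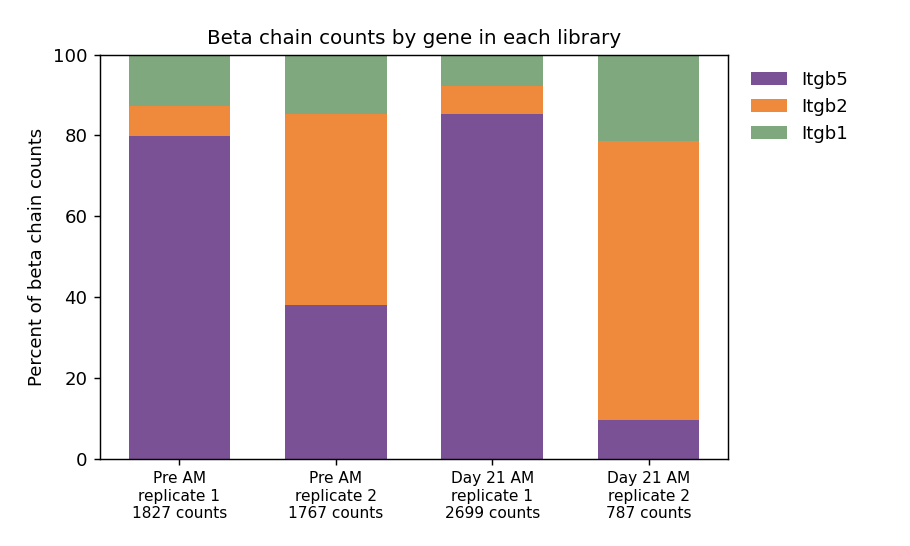
Share of the Itgb5, Itgb2 and Itgb1 counts in each library, in percent of the beta chain counts printed under each bar (Itgb7 is at 0). Itgb5 holds 79.7% and 85.2% in the replicate 1 libraries and 38.03% and 9.53% in the replicate 2 libraries.

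Icam1, the ligand gene for LFA-1 and Mac-1, had 275 and 417 counts in Pre AM and 168 and 252 in Day 21 AM. Its levels were 135 and 171 CPM before and 95.9 and 180 CPM on day 21, and the highest and lowest library were both of the Day 21 AM group. The log2 change was -0.15 ± 0.62, with a 95% interval of -1.42 to 1.12 (edgeR, adjusted p 0.998), and it was 0.06 without Pre AM replicate 2 and 0.29 without Day 21 AM replicate 1. The last site, in the 3′ UTR, held 96.9% of its counts over all libraries. Icam1 was thus read almost wholly at 1 tag.

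Of the tags of these genes 14 could be tested one by one, and none passed at an adjusted p under 0.05 over 3907 tags, of which 0.358% did. None had an unadjusted p under 0.05, and every adjusted p was 0.999 (edgeR). The lowest unadjusted p, 0.0515, was that of the last Itgax site, which had 43, 46, 16 and 3 counts in Pre AM replicates 1 and 2 and Day 21 AM replicates 1 and 2 (log2 change -1.80 ± 0.84). The tag at the junction of exons 26 and 27 had 83, 122, 44 and 61 counts and a change of -0.42 ± 0.68. Both Itgax tags were lower in both Day 21 AM libraries, and the difference between their changes was not tested.

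Of the Itgax counts the 3′ UTR held 32.1% and 25.1% in Pre AM and 25% and 4.23% in Day 21 AM, where the last value has an exact 95% interval of 0.880% to 11.9%. Day 21 AM replicate 2 thus stood apart from the other 3 libraries in where Itgax was counted. The same library had the lowest 3′ UTR share of Itgb2, at 19.2% against 35.4% to 43.5% in the others, and of Itgb1, at 82.2% against 86.5% to 90.5%. For Itgal (15.4%) and Itga4 (60.0%) it was also the lowest, on few counts. For Itgb5 it was the highest, with all 75 counts in the 3′ UTR, and for Icam1 it was neither, at 97.2% against 95.7% to 98.8% in the others. The most counted Itgb2 tag, at the junction of exons 6 and 7, had 46, 421, 83 and 311 counts, and the main 3′ UTR tag had 49, 247, 66 and 90. The Itgb2 change between the groups therefore had a different sign at the junction tag (0.49 ± 0.89) and the 3′ UTR tag (-0.28 ± 0.75), neither beyond its error.

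**Figure D4:**
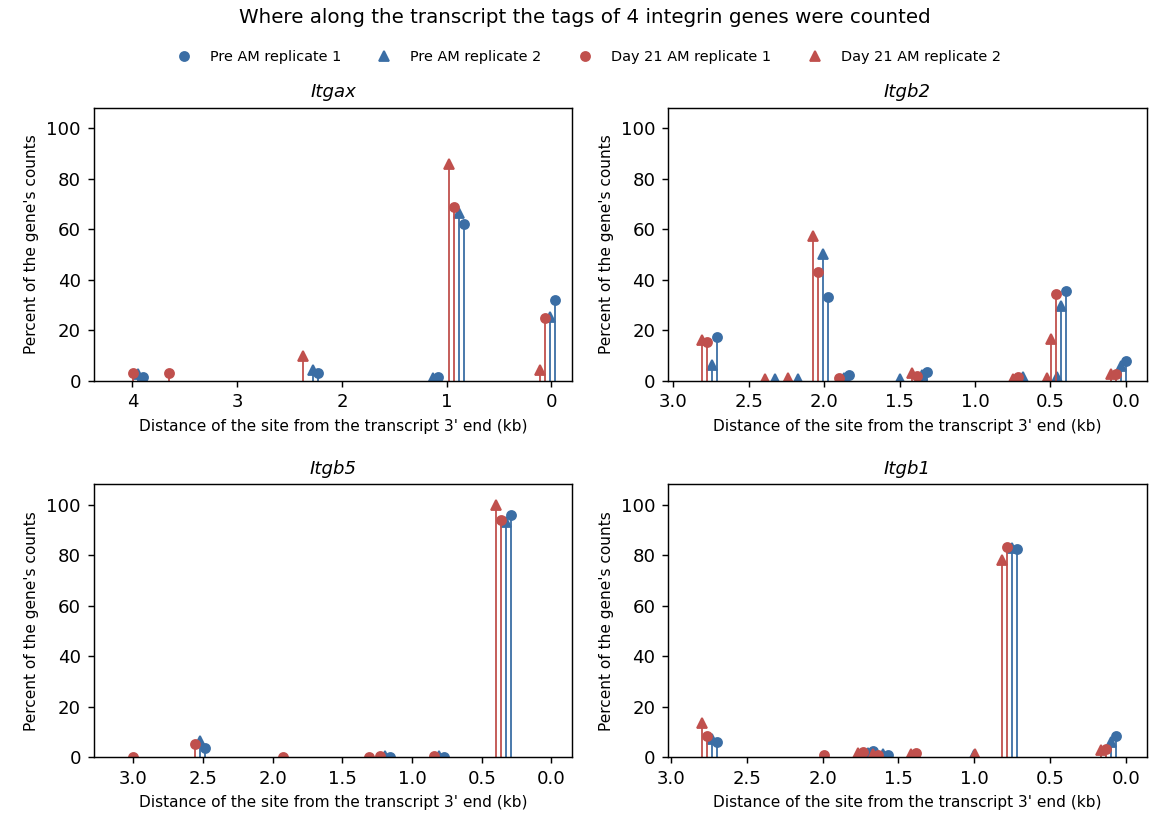
Percent of the counts of Itgax, Itgb2, Itgb5 and Itgb1 found at each CATG site in each library, by distance of the site from the 3′ end of the transcript in kb, with libraries shifted sideways for legibility. Itgb5 and Itgb1 are counted mostly at 1 site, while Itgax and Itgb2 are split between the 3′ UTR and inner sites, and Day 21 AM replicate 2 has the smallest share of Itgax at the last site (4.23%).

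The rest of the integrin family was hardly counted. Of 18 other integrin chain genes 10 were listed, and 8 of those (Itga2b, Itga3, Itga6, Itga9, Itga10, Itga11, Itgb3 and Itgb4) were at 0 in all 4 libraries. Itga5, the fibronectin receptor chain, had 3, 0, 2 and 0 counts and Itga1, a collagen receptor chain, had 2 counts in Day 21 AM replicate 1. None of them entered the test.

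Of 23 genes for integrin ligands and counter-receptors 19 were listed, 8 had counts and 5 were tested, Icam1 included. None passed the test with edgeR, DESeq2 or limma-voom. With edgeR 1 was higher at an unadjusted p under 0.05, beside 106 of all 2993 genes tested. Of the changes 2 were positive and 3 negative, and the median was -0.15. Mfge8, which encodes a bridge between apoptotic cells and the integrins with the Itgav chain, was at 11.3 and 4.91 CPM in Pre AM and 36.5 and 32.1 CPM in Day 21 AM. Its groups did not overlap and its log2 change of 2.08 ± 0.76 was the largest of that list, but its adjusted p was 0.456 (edgeR). Complement C3, whose fragment iC3b is bound by Mac-1 and CD11c, had a change of -1.44 ± 0.80 (adjusted p 0.956). F11r, which encodes the LFA-1 ligand JAM-A, had a change of -0.59 ± 0.74. Fn1, the fibronectin gene, was too low to test, with 0 and 2 counts in Pre AM and 8 and 10 in Day 21 AM. Vcam1, Icam2 and Madcam1 were listed at 0.

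Integrins are switched on from inside the cell by talin and kindlin, which bind the beta chain tail, and they signal through kinases and actin-linked adaptors. Of 42 such genes 39 were listed, 31 had counts and 22 were tested. None passed the test with edgeR, DESeq2 or limma-voom, with 8 positive and 14 negative changes and a median of -0.20. With edgeR 1 was lower at an unadjusted p under 0.05, beside 64 of all 2993 genes tested. The groups did not overlap for 8 of the 22 as lower and 2 as higher on day 21, against 16% and 15.2% of all genes tested. Actn4 passed as higher without Pre AM replicate 2. Zyx, which encodes the focal adhesion protein zyxin, had the lowest unadjusted p, at 1315 and 816 CPM in Pre AM and 485 and 340 CPM in Day 21 AM (log2 change -1.37 ± 0.57, edgeR adjusted p 0.697). Actn4, an actinin gene, had a change of 1.41 ± 0.83 (adjusted p 0.998). Fermt3, the kindlin gene of blood cells, was among the more abundant, at 910 and 600 CPM and then 608 and 789 CPM (log2 change -0.11 ± 0.56).

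Integrins with the Itgav chain release TGF-beta from its latent complex. Of 19 genes for TGF-beta and its activation 18 were listed, 9 had counts and 5 were tested. None passed the test with edgeR, DESeq2 or limma-voom (0 at an unadjusted p under 0.05), 1 change was positive and 4 were negative, and the median was -0.68. The groups did not overlap for 1 of the 5, lower on day 21, against 16% of all genes tested. The receptor gene Tgfbr1 had a change of -1.02 ± 0.73, the corepressor gene Ski -0.68 ± 0.73 and Tgfb1 -0.70 ± 0.79. Tgfb1 had 41, 41, 33 and 5 counts, so its low value was that of Day 21 AM replicate 2, the library with the least Itgb5.

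Of 17 adhesion genes of leukocytes outside the integrin family 15 were listed, 12 had counts and 9 were tested. None passed the test with edgeR, DESeq2 or limma-voom (0 at an unadjusted p under 0.05), 2 changes were positive and 7 negative, and the median was -0.35. The groups did not overlap for 3 of the 9, all lower on day 21, against 16% of all genes tested. Cd33 passed as higher without Pre AM replicate 2. Cd33, a sialic acid-binding receptor gene, had 30 and 472 counts in Pre AM and 325 and 564 in Day 21 AM, with Pre AM replicate 1 far below the rest (log2 change 1.496 ± 0.78, edgeR adjusted p 0.947). The tetraspanin genes Cd82 and Cd151, whose products associate with integrins, had changes of 1.08 ± 0.66 and -1.05 ± 0.66.

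All listed T and NK cell (6), B cell (3), mast cell (1) and endothelial (4) markers were at 0. Epithelial markers summed to 82.4 and 154 CPM in Pre AM and 33.1 and 44.9 CPM in Day 21 AM, nearly all from Epcam and Krt19, with Sftpa1, Krt8, Krt18, Cdh1 and Foxj1 at 0. The part of these markers in the integrin levels was not tested. Of the dendritic cell markers only Irf8 was counted, at 5.40 to 32.1 CPM, with Zbtb46, Batf3 and Siglech at 0. Eosinophil, fibroblast and hepatocyte markers summed to at most 4.28 CPM in any library, with counts only for Prg2, Dcn and Afp, and of the platelet markers only Pf4, also in the monocyte-derived list, was counted.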

How the data were processed

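Each deposited file gives the raw count of every listed 21-base tag in 1 library, per the file headers and the values, beside a symbol and a RefSeq accession. Per the labels' protocols, cDNA was cut with NlaIII and tags were released with EcoP15I and amplified by PCR. The submitters' processing notes name the build mm9. Tag matching and count filter: not given in the sources used here. Counts of 1 do not occur, while counts of 2 belong to 2045 to 2766 tags a library. Tags without molecular identifiers are not independent molecules. Each tag was named through its accession (29346 tags), its symbol (429), an older symbol (115) or the deposited symbol (737), and tags were summed per gene. Coordinates come from a match of CATG plus tag to GENCODE M21 transcripts. Of the 58 tags 56 matched 1 gene, and 2, of Itgam and Itgb5, matched 2.

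Groups were compared with edgeR 4.0.16 (R 4.3.3), quasi-likelihood test, TMM, filterByExpr (minimum count 10, minimum total 15), Benjamini-Hochberg adjustment over 2993 genes or 3907 tags, threshold 0.05 and group as the only term. The fit had a biological coefficient of variation of 0.482 and 2 residual degrees of freedom per gene. Standard errors are the size of the log2 change over the root of F. DESeq2 1.42.0, limma-voom (limma 3.58.1), other scalings and filters and the most counted tag alone were alternatives. The test was tried on simulated data first. Genes and lists were chosen with earlier results of these data known. Named are all 10 genes, other integrin chains, the 3 tested genes of smallest p in each pathway list, the 2 most abundant markers of each cell type, some of the markers at 0 (the design named them all, and the others are given as counts), and further genes where a result turns on them. A result that this rule would name is not reported here.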

Additional observations from a re-analysis of the deposited data

How the results depend on the processing

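The number of genes past the threshold, 22, was 41 without the filter on low counts, 10 with a filter of 5 counts, 9 with total counts alone, 12 with limma-voom and 9 with the most counted tag of each gene. Leaving out single libraries gave 0 to 81 genes, with 0 without Pre AM replicate 1 and 81 without Pre AM replicate 2, where the lone library of a group is taken to vary like the others. The 14 tags past the threshold became 34 without the filter, and 17 to 96 with single libraries left out. No integrin gene or Icam1, and none of their tags, passed in any of these settings (lowest adjusted p 0.236 for a gene and 0.0664 for a tag). Of 97 alternative log2 changes of the 7 tested genes 10 reversed in sign. These were Itgb2 with total counts (-0.035) and with libraries left out (-0.86 to 1.91), Itgb1 with total counts (-0.11), Itgb5 with limma-voom (-0.69) and with libraries left out (-3.15 to 1.44), Icam1 with libraries left out (-0.64 to 0.29), and Itgb5 under the replicate block below. Itgax, Itgal and Itga4 reversed in none, but Itga4 passed the filter on low counts through the Pre AM libraries alone, so its sign carries little weight. Total counts moved the median of all genes from -0.07 to -0.29. The cause of these shifts was not tested. With 1 count added to each listed tag at 0, the mean Itgax share of Itgax and Itgam counts was 98.1% in Pre AM and 95.9% in Day 21 AM. The log2 difference in alpha chains per Itgb2 was -2.15 to -0.16 with libraries left out. The most counted tag of Itga4 alone was too low to test.

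With the replicate number as a block 40 genes and 156 tags passed, 20 of the 40 genes shared with the 22, and no integrin gene, Icam1 or tag of theirs passed (lowest adjusted p of a tag 0.056). Krt79 of the alveolar macrophage markers passed as lower, the only added call in the lists described. The Itgb5 change was then -0.69. The differences between replicates 1 and 2 correlated across genes between the groups (r = 0.54 over 2993 genes, which are not independent replicates), but with 2 pairs and no shared source in the labels this does not show pairing.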
